A study of Mus musculus with 5 samples.

Results

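Proximal tubule S3 segment cells are described here across genes and across 4 droplet libraries of mouse kidney, taken after sham surgery, on days 2 and 7 of ureteric obstruction, and after the obstruction had been reversed. The cells were chosen by their own UMI counts (unique molecular identifiers, 1 per captured RNA molecule): at least 200 genes, at most 50% of UMIs from the 13 mt- genes of the mitochondrial genome, at least 3 UMIs of Slc7a13, fewer than 4 summed UMIs of the early-segment genes Slc5a2, Slc6a19 and Spp2, fewer than 5 of the fibrinogen genes Fgg, Fga and Fgb, no Ptprc, at most 1 Egfl7 and at most 2 Slc12a1 UMIs. This gave 249 S3 cells among 13823 cells that passed the first 2 conditions, out of 16876 deposited. These 2 conditions cut the libraries unequally. They kept 3933 of 5938 cells in sham, 2207 of 2739 on day 2, 4447 of 4504 on day 7 and 3236 of 3695 in the reversed library. Of the 249 cells, 173 came from sham, 2 from obstruction day 2, 19 from day 7 and 55 from the reversed library. Levels of Slc7a13, and of the genes that the rule kept low, are therefore given as a description and carry no test.

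The proximal tubule reabsorbs most of what the glomerulus filters, and its last part, the straight S3 segment in the outer stripe and medullary rays, differs from the earlier S1 and S2 segments in its transporters and enzymes. S1 and S2 take up most glucose, phosphate and amino acids with high-capacity carriers, whereas S3 recovers what is left with high-affinity carriers and is rich in peroxisomes, organic anion carriers and drug-metabolising enzymes. Slc7a13 encodes the S3 cystine and aspartate carrier AGT1, Slco1a1 an organic anion transporter, Acsm3 a medium-chain acyl-CoA synthetase and Inmt an indolethylamine N-methyltransferase. In mouse kidney, S3 expression also depends on androgen, and Slco1a1 and Kap (kidney androgen-regulated protein) are known for this.

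All mice were C57/BL6 animals of 8 weeks, and each library pooled the kidney cells of 3 mice. The groups were sham surgery (day 0), obstruction for 2 days, obstruction for 7 days, and obstruction that had been reversed 7 days before sampling on experimental day 14. After digestion on ice, live cells were taken by exclusion of DAPI, with no gate for tubule cells, and made into 3′ droplet libraries. Because each condition is 1 library, a difference between conditions has no replicate check and is given without a p-value, and its 95% interval covers counting error only (exact Poisson for a level, exact Clopper-Pearson for a share, exact conditional binomial for a ratio).

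The deposited cells held 18649637 to 30462683 UMIs per library, and the summed S3 cells held 563347 UMIs of nuclear genes in sham, 14950 on day 2, 103218 on day 7 and 264392 in the reversed library. Single S3 cells had a median of 3770 UMIs in sham, 7208 on day 7 and 5798 in the reversed library, with mt- genes at a median of 29.7%, 21.9% and 22.1% of UMIs. The 2 cells of day 2 had 7264 and 11143 UMIs. Levels are CPM (a gene's UMIs scaled to the nuclear UMIs of its gate, in parts per 1e6), and 3 UMIs, the limit that a count of 0 allows, equal 5.33, 201, 29.1 and 11.3 CPM in the 4 libraries in the order above. Library pairs shared 16 to 39 cell barcodes and no S3 cell shared its barcode with an S3 cell of another library. Scores for doublets (2 cells in 1 droplet) marked 2 of the 173 sham S3 cells and none elsewhere, and these were kept in the values given here.

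S3 cells made up 4.40% of kept sham cells (173 of 3933, 95% interval 3.78% to 5.09%). They made up 0.0906% on day 2 (2 of 2207, 0.0110% to 0.327%), 0.427% on day 7 (19 of 4447, 0.257% to 0.666%) and 1.70% in the reversed library (55 of 3236, 1.28% to 2.21%). The sham interval lay above the other 3, and the reversed interval lay above both obstructed ones. With at least 3 summed UMIs of Slco1a1 and Acsm3 in place of Slc7a13, sham (112 of 3933, 2.35% to 3.42%) and the reversed library (79 of 3236, 1.94% to 3.03%) overlapped. Leukocytes (Ptprc at least 1 UMI, Egfl7 at most 1 and none of the S1, S3 or fibrinogen conditions) are part of this denominator and numbered 93 in sham, 699 and 2774 at days 2 and 7 of obstruction and 973 in the reversed library.

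Shares were also taken among proximal tubule cells alone. The denominator was all cells that met the S3 rule, an S1 gate (4 or more summed Slc5a2, Slc6a19 and Spp2 UMIs and fewer than 3 of Slc7a13, with the other conditions as for S3), a fibrinogen gate (5 or more summed UMIs of the fibrinogen genes), or both segment conditions. S3 cells were 10.7% of these in sham (173 of 1613, 9.26% to 12.3%), 0.548% on day 2 (2 of 365, 0.0664% to 1.97%), 20.2% on day 7 (19 of 94, 12.6% to 29.8%) and 7.78% in the reversed library (55 of 707, 5.91% to 10.0%). The day 7 interval lay above that of sham, and that of day 2 lay below every other. The gates ask for fixed UMI counts, whereas depth differed between libraries. The median was 3770 UMIs in sham and 7208 on day 7 for S3 cells, and 3596 and 7625.5 for S1-gate cells. These shares were not repeated at equal depth. The order by value of sham, day 7 and the reversed library depended on the setting. With mt- UMIs of at most 20%, S3 cells were 30 of 117 in sham (18.0% to 34.5%), 8 of 56 on day 7 (6.38% to 26.2%) and 23 of 131 in the reversed library (11.5% to 25.2%). Day 7 was the lowest of the 3 by value, but the intervals overlapped, so no order is read from this setting. With at least 3 summed UMIs of Slco1a1 and Acsm3 in place of Slc7a13, S3 cells were 112 of 1552, 27 of 102 and 79 of 731, so the reversed library stood above sham. Day 2 was the lowest of the 4 in both, with 1 of 115 and 1 of 364. S1-gate cells numbered 1433, 139, 26 and 637 in the same order, and fibrinogen-gate cells 2, 224, 47 and 12. In sham the median share of mt- UMIs was 35.6% in S1-gate cells and 29.7% in S3 cells. The 50% limit may therefore remove more of the S1-gate cells in the denominator, and no limit above 50% was tried. A gate reads RNA, so fewer S3 cells and less Slc7a13 RNA per cell cannot be told apart, and the same holds for the S1 genes of the denominator.

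**Figure D1:**
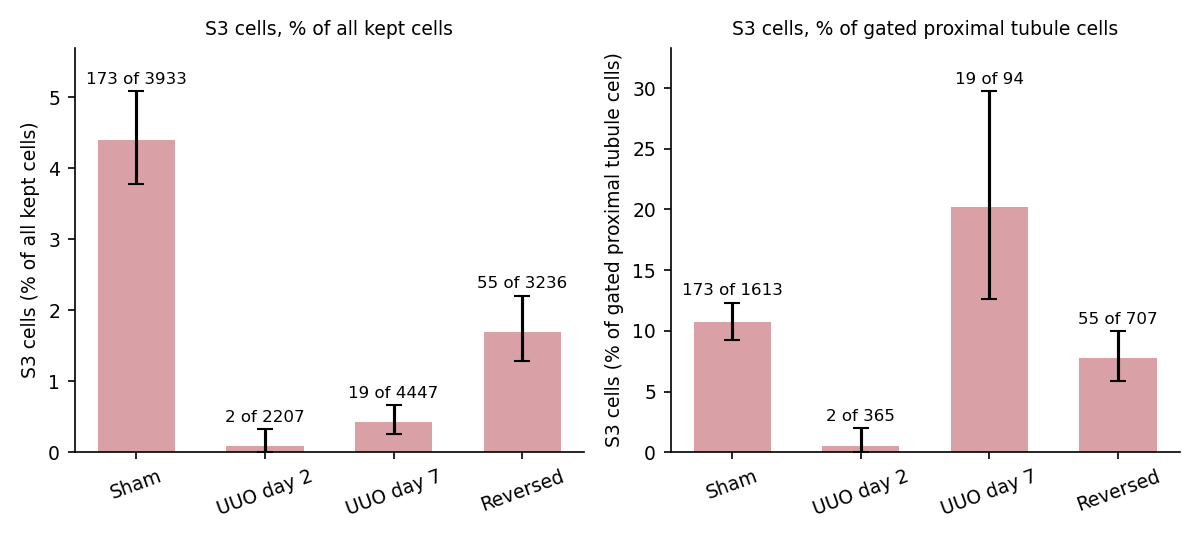
Share of S3 cells among all kept cells (left) and among gated proximal tubule cells (right) in each library, in percent, with bars starting at 0. Error bars are exact 95% binomial intervals for counting error, and the numbers are S3 cells of all cells. Day 7 is low on the left (19 of 4447) and high on the right (19 of 94).

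The order over all kept cells was the same at equal depth. With every kept cell thinned to 1000 UMIs, 7.91% of sham cells had an Slc7a13 UMI (7.08% to 8.80%), against 0.0453% at day 2 (0.00115% to 0.252%), 0.877% at day 7 (0.624% to 1.20%) and 2.50% in the reversed library (1.99% to 3.10%). Without thinning the shares were 14.5%, 1.04%, 2.47% and 6.52%, and the median depth of kept cells was 2709, 6590, 5732 and 4937.5 UMIs. Endothelial cells (2 or more Egfl7 and no Ptprc UMIs), which should lack Slc7a13 and had a median depth of 2456, 4256.5, 3683.5 and 3949.5 UMIs, showed it in 1.03% of sham, 0.231% of day 7 and 0.843% of reversed cells after thinning, and in 0 of 158 day 2 cells, which allows up to 1.90%. On day 2 the share over all cells was thus at or below what background allows, and its interval overlapped that of endothelial cells on day 7 (0.00586% to 1.28%) and in the reversed library (0.174% to 2.44%). The intervals over all cells on day 7 and in the reversed library also overlapped these endothelial intervals of their own libraries. In sham the interval over all cells lay above that of endothelial cells (0.125% to 3.67%). At the 3 UMIs that the rule asked for, endothelial cells were at 0 of 194, 0 of 158, 0 of 432 and 1 of 356, and the counts of 0 allow shares of up to 1.55%, 1.90% and 0.694%. Leukocytes with no Slc7a13 condition were at 3 of 102, 0 of 718 (up to 0.418%), 10 of 2805 and 4 of 1040. On day 7 that is 0.357% of leukocytes (0.171% to 0.655%), which overlaps the S3 share of kept cells, and the rule leaves such cells out through Ptprc.

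Of the 182 sham, 3 day 2, 33 day 7 and 64 reversed cells with at least 3 Slc7a13 UMIs, the other conditions removed 9, 1, 14 and 9. On day 7 the largest loss was to Ptprc (10 cells), followed by fibrinogen (3 cells) and the S1 genes (2 cells). Cells just inside the threshold, with exactly 3 Slc7a13 UMIs, numbered 54, 2, 6 and 13, and cells just outside it, with 2, numbered 88, 1, 11 and 30. In sham the summed level of Slco1a1 was 379 CPM just inside and 323 CPM just outside, that of Acsm3 305 and 193 CPM, and that of Kap 49909 and 46599 CPM, so all 3 levels were lower just outside. In the reversed library Acsm3 stood at 307 CPM just inside and 362 just outside, Inmt at 654 and 1002, and Kap at 48265 and 56417, all higher just outside, and Slco1a1 at 593 and 497. On day 7 Slco1a1 stood at 527 CPM just inside and 303 just outside, and Acsm3 at 365 and 202. Inmt had 771 and 353 CPM there and Kap 58785 and 52898, so each of these was lower just outside on day 7.

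The label was checked on the markers that the rule did not use. Slco1a1 (ENSMUSG00000041698, chromosome 6, 141907282 to 141946962, GRCm38) stood at 515 CPM in sham S3 cells (290 UMIs, 457 to 578), 134 on day 2 (2 UMIs, 16.2 to 483), 668 on day 7 (69 UMIs, 520 to 846) and 601 in the reversed library (159 UMIs, 512 to 702). The S1 gate had 10.0, 0, 0 and 5.34 CPM of it, and endothelial cells 9.65, 0, 3.53 and 1.71. Sham, day 7 and reversed S3 cells overlapped in their intervals for Slco1a1 and were all far above both other gates.

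Acsm3 (ENSMUSG00000030935, chromosome 7, 119760923 to 119787513) showed the same pattern, with 323 CPM in sham S3 cells (278 to 374), 455 at day 7 (335 to 606) and 329 in the reversed library (264 to 406), and with 14.0, 0 and 9.96 CPM in the S1 gate. No Acsm3 UMI was found in the 2 cells of day 2. Inmt (ENSMUSG00000003477, chromosome 6, 55170626 to 55175043) was more graded: sham S3 cells had 1235 CPM (1145 to 1331), the 2 cells of day 2 had 535 (231 to 1054), those of day 7 had 581 (444 to 748) and reversed cells had 832 (726 to 950). The sham, day 7 and reversed intervals for Inmt did not overlap except between day 7 and the reversed library, and the S1 gate had 253, 13.4, 21.8 and 161 CPM. Slc7a13 itself (ENSMUSG00000041052, chromosome 4, 19818725 to 19842218), which chose the cells, stood at 1725, 401, 1104 and 1271 CPM. The 3 markers outside the rule were thus present in sham, day 7 and reversed cells, and Slco1a1 and Inmt in the 2 cells of day 2.

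Cell by cell the markers were sparse. After thinning to 1000 UMIs, with no cell too shallow to enter, Slco1a1 was seen in 30.6% of sham, 31.6% of day 7 and 32.7% of reversed S3 cells, and in 0.558%, 0 and 0.314% of S1-gate cells. Inmt was seen in 60.7%, 68.4% and 43.6% of S3 cells, an order that goes against its CPM, whereas at 500 UMIs the shares were 41.6%, 21.1% and 32.7% and followed the CPM. No order is read from either. Unthinned, 116 of 173 sham, 15 of 19 day 7 and 47 of 55 reversed S3 cells had an Slco1a1 UMI.

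Kap (ENSMUSG00000032758, chromosome 6, 133849851 to 133853762) was the most abundant nuclear transcript of sham S3 cells, with 50786 CPM (50199 to 51378). It stood at 29900 CPM on day 2, 57829 on day 7 and 55569 after reversal, and a median of 5.15%, 5.04% and 5.24% of a cell's nuclear UMIs in sham, day 7 and reversed cells. Single cells ranged from 0.237% to 13.2% in sham, from 1.35% to 12.5% on day 7 and from 0.351% to 15.3% after reversal. These ranges describe cells, which are no replicates of a condition, and decide nothing on a difference between libraries. The S1 gate had 4505, 375, 1477 and 5405 CPM of Kap, with a median of 0.213% of a cell's UMIs in sham. The labels give no sex. The Y-linked Ddx3y was found in S3 cells of all 4 libraries (30.2, 66.9, 58.1 and 75.6 CPM) and Xist at 2 UMIs in 1 cell of the reversed library only.

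The sequences just before the transcript starts of Slco1a1 and Acsm3 in the RefSeq promoter table (GRCm38.p6) are shown because the rule did not use these markers and they were far higher in S3 cells than in the S1 gate. Each is the 120 bases up to the base before the RefSeq start, read 5′ to 3′ on the gene's strand, at chr6:141946963-141947082 (Slco1a1, minus) and chr7:119760803-119760922 (Acsm3, plus). Capitals mark matches, on either strand, to the TATA box letters TATAAA. Letters of an arm of the HNF1 site and of an arm of the androgen receptor site were also searched for on both strands, and neither occurs in these 2 windows.
Slco1a1: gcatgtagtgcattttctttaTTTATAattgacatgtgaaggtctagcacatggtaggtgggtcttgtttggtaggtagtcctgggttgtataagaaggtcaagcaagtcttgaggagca
Acsm3: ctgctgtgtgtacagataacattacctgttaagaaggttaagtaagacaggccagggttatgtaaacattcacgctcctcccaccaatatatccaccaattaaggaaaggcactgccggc
TATAAA was found on the opposite strand of Slco1a1. It was present in 6.76% of 27025 promoter windows of this length, in 5 of the 10 windows found for the 15 genes named below as most increased in S3, and in 0 of the 10 found for the 15 most decreased. The HNF1 arm was searched as GTTAAT, which 3.02% of all windows hold, and was in none of these 20 windows. The androgen receptor arm was searched as AGAACA, which 7.66% of all windows hold, and was in 1 window of the increased genes. These matches describe the letters only, and the windows rest on the RefSeq starts.

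To ask which genes beyond the rule set S3 apart from the earlier segments, the summed UMIs of S3 cells and of S1-gate cells were compared in the 3 libraries with at least 10 cells of each (sham, day 7 and reversed), with edgeR's quasi-likelihood test, TMM scaling and the library as a block. Of 5038 genes tested, 413 were higher in S3 cells (8.2%) and 301 were lower (5.97%) at a Benjamini-Hochberg adjusted p under 0.05. The replicates here are 3 libraries of different condition, so the test asks for a segment difference that held across sham, obstruction and reversal. Genes past the filter's minimum (17.4 per 1e6 UMIs, mt- genes included) in every library of both gates numbered 3184, of which 295 were higher in S3 cells (9.27%) and 153 lower (4.81%). The other genes passed the filter with at least 1 gate low, and a gene that passed only through the gate where it is high had to differ. Of the 15 named genes in each direction, only Kap was past the minimum in both gates, so the values of the others are a description, with no p. The test rests on 19 S3 and 26 S1-gate cells on day 7: leaving out that library gave 700 higher and 572 lower of 9270 genes tested (7.55% and 6.17%), leaving out sham gave 138 and 64 of 3422 (4.03% and 1.87%), and leaving out the reversed library gave 239 and 178 of 4922 (4.86% and 3.62%).

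**Figure D2:**
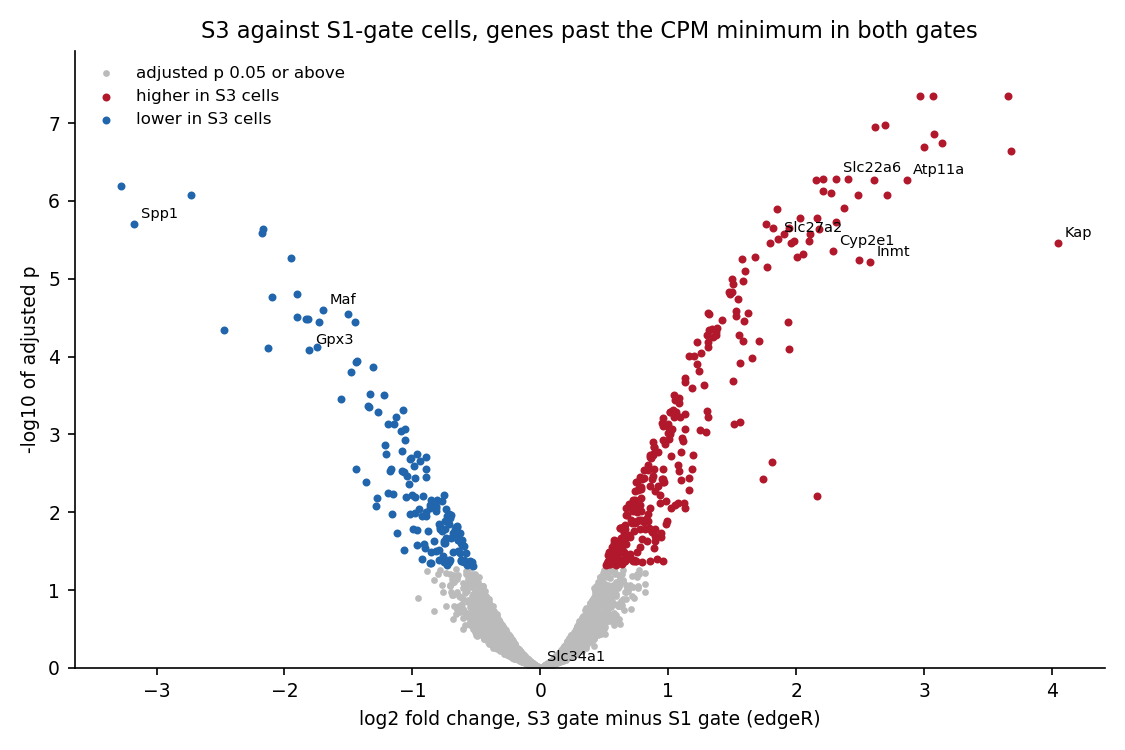
Each point is 1 gene, with the log2 fold change of S3 cells minus S1-gate cells on the x axis and −log10 of the adjusted p on the y axis (edgeR, 3 libraries each), for the 3184 genes past the CPM minimum in every library of both gates, genes of the rule left out. Red points were higher in S3 cells (295 genes), blue points were lower (153 genes) and grey points did not pass, and Kap stands furthest right of the labelled genes.

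Among the increased genes were brush-border and uptake proteins. Mep1b, a subunit of the brush-border protease meprin, had 58.6, 87.2 and 68.1 CPM in sham, day 7 and reversed S3 cells and 0.528, 0 and 0 in the S1 gate. The levels of Slco1a1 and Acsm3, also among the 15, are given above. Slc22a7, an organic anion transporter, had 56.8, 107 and 98.3 CPM against 1.58, 0 and 1.42, and Slc5a8, a carrier of lactate and other monocarboxylates, had 478, 388 and 564 CPM against 20.3, 16.3 and 33.1. Slc5a1, the high-affinity glucose carrier SGLT1, had 60.4, 38.8 and 56.7 CPM against 3.17, 0 and 3.20.

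Enzymes made up most of the rest of the top 15. These were Cyp2d9, Cyp2a4 and Cyp4a14 of the cytochrome P450 family, Dpys of pyrimidine breakdown, Bdh1 of ketone body use, Akr1c14 of steroid metabolism and Ace, the angiotensin-converting enzyme. Lpl, lipoprotein lipase, had 1511, 1095 and 1290 CPM in S3 cells against 101, 16.3 and 74.4, while endothelial cells had 376, 140 and 127. Kap closed the list with a log2 fold change of 4.05 (SE 0.38, adjusted p = 3.5e-06 by edgeR). At 1000 UMIs Kap was seen in 77.7% of sham S1-gate cells and in 84.0% of sham endothelial cells, which should lack it. Its level in the S1 gate is therefore not read as expression there, and the part of free RNA in this fold was not tested.

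The genes lowest in S3 cells included carriers of the early segments. Slc5a12, the low-affinity lactate carrier of S1, had 16.0, 0 and 3.78 CPM in sham, day 7 and reversed S3 cells and 360, 158 and 417 in the S1 gate. Slc34a3, a phosphate carrier, had 7.10, 0 and 3.78 CPM against 121, 21.8 and 115. Car3 (carbonic anhydrase 3) had 16.0, 0 and 3.78 against 398, 49.0 and 355, and Cyp24a1, which inactivates vitamin D, had 10.7, 9.69 and 0 against 136, 32.7 and 77.9. Tfpi, an inhibitor of coagulation, had no UMI in any S3 cell and 28.2, 21.8 and 30.2 CPM in the S1 gate. Others of this list were Ugt2b34, Epb41l3, Osr2, Prss23, Limch1, Clec2h, Phgdh, Cttnbp2 and Sectm1b.

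A list of 20 S3 genes from textbook knowledge of the segment was chosen with earlier results of these data known. It had 14 members that passed the count filter, and 13 of them were higher in S3 cells, against 8.2% of all genes tested. The 6 that did not pass were Slc22a13, Slc22a19, Cyp7b1, Rnf24, Serpina1f and Bcat1. Members low in the S1 gate, such as Slco1a1, Acsm3, Slc22a7 and Slc5a1, could pass the filter only through S3 cells, so this count is a description and nothing is read from it. Past the CPM minimum in both gates were 8 members, of which 7 were higher, against 9.27% of such genes. Slc6a18 (a neutral amino acid carrier, 302, 271 and 249.6 CPM in sham, day 7 and reversed S3 cells), Atp11a (a lipid flippase, 754, 746 and 662) and Slc22a30 (678, 843 and 806) were among them. The 1 that missed the threshold was Slc1a1, the glutamate carrier, at 197, 194 and 212 CPM against 182, 114 and 151 in the S1 gate (adjusted p = 0.25 by edgeR).

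**Figure D3:**
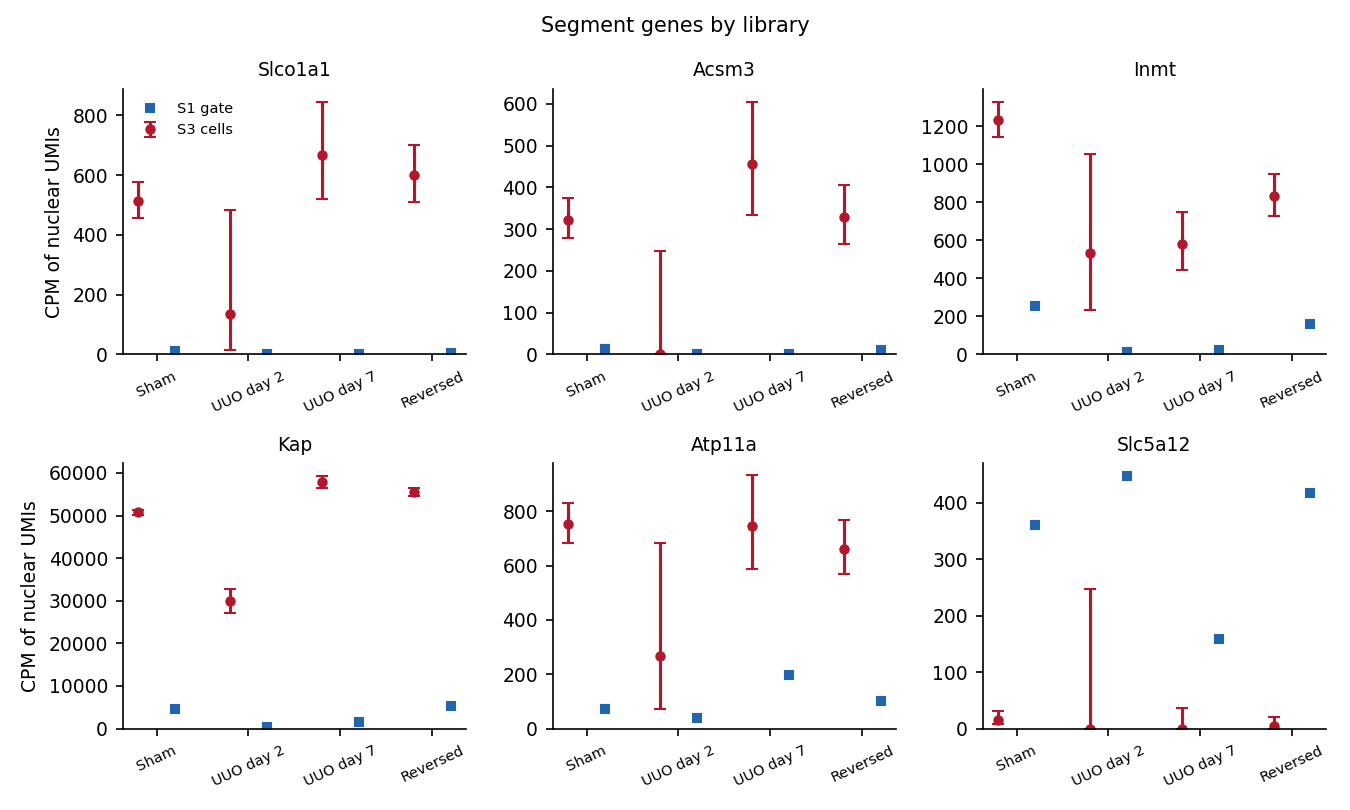
Levels in CPM of nuclear UMIs (linear axes from 0) of 6 genes in S3 cells (red, with exact 95% Poisson intervals for counting error) and in S1-gate cells (blue) of each library. Slco1a1, Acsm3, Inmt, Kap and Atp11a stand higher in S3 cells and Slc5a12 stands lower in sham, day 7 and the reversed library. Day 2 rests on 2 S3 cells.

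Of a list of 20 S1 and S2 genes all 20 passed the filter, 8 were lower in S3 cells and 3 were higher, against 5.97% and 8.2% of all genes. Past the CPM minimum in both gates were 15, with 3 lower and 3 higher, against 4.81% and 9.27% of such genes. These 3 lower genes were Slc7a7 (a basolateral amino acid carrier), Slc4a4 (the bicarbonate cotransporter) and Gatm (first step of creatine synthesis). The other 5, Slc5a12, Slc34a3, Slc7a8, Slc2a2 (GLUT2) and Gc, were not past the minimum in both gates and are a description only. Higher were Slc22a6, the organic anion transporter OAT1 (1056, 639 and 1138 CPM against 218, 109 and 249), Slc13a3 and Pck1. Slc34a1, the main phosphate carrier, did not differ by this test (log2 fold change 0.01, SE 0.18, adjusted p = 0.99), with 4676, 2122 and 3639 CPM in S3 cells and 5134, 1842 and 4006 in the S1 gate.

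Of 30 tested genes for cytochrome P450 and conjugation enzymes, 20 were higher and 4 lower in S3 cells, and of 33 genes for fatty acid oxidation and peroxisomes, 20 were higher and 3 lower, against 8.2% and 5.97% of all genes. These lists hold genes near absent from the S1 gate, such as Cyp4a14, Cyp2d9 and Cyp2a4. Past the CPM minimum in both gates, 15 of 21 cytochrome P450 and conjugation genes were higher and 1 lower, and 16 of 27 fatty acid and peroxisome genes were higher and 2 lower, against 9.27% and 4.81%. Cyp2e1 had 1514, 1192 and 1017 CPM in S3 cells against 234, 191 and 346, and Slc27a2, a fatty acid transporter and acyl-CoA synthetase of the peroxisome, had 3456, 3129 and 2432 against 915, 970 and 685. Fabp3, a fatty acid binding protein, had 32.0, 0 and 7.56 CPM against 222, 136 and 198, was not past the minimum in both gates and is a description only. DESeq2 called 18 and 3 of the P450 and conjugation genes and 14 and 1 of the fatty acid and peroxisome genes. Organic ion transporters showed 9 of 17 higher and 1 lower (Abcc4, also not past the minimum in both gates), and glutathione and antioxidant genes 10 of 23 higher and 3 lower, or 7 of 14 and 0, and 10 of 20 and 2, past the minimum in both gates. In the latter, Ggt1, the brush-border enzyme that splits glutathione, was higher (1108, 930 and 972 CPM against 300, 136 and 280), and Gpx3, the secreted glutathione peroxidase, was lower (log2 fold change −1.81, SE 0.24, adjusted p = 8.3e-05 by edgeR).

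The respiratory chain gave no call. Of its 30 nuclear genes and 13 mitochondrially encoded genes, 0 passed the edgeR test in either direction, against 8.2% and 5.97% of all genes. At an unadjusted p under 0.05 each set had 1 gene lower and 0 higher, and DESeq2 called 0. The endocytosis list had 0 higher and 1 lower (Dab2) of 15, against 8.2% and 5.97% of all genes, and DESeq2 called 0. In this list was Lrp2, the receptor megalin, at 1070, 775 and 1078 CPM against 1093, 638 and 1031. Of 13 amino acid transporters, 3 were higher and 5 lower, or 2 and 4 of the 10 past the minimum in both gates, where 9.27% and 4.81% of genes were, and DESeq2 called 1 and 4 of the 13. Of 11 tested transcription factors, Nr1h4 (the bile acid receptor FXR) was higher and Maf was lower, at 293, 281 and 314 CPM against 1039, 649 and 1192, whereas Hnf4a, at 327, 252 and 231 against 272, 153 and 222, did not pass (adjusted p = 0.35 by edgeR). That is 1 of 11 in each direction beside the 8.2% and 5.97% of all genes, and DESeq2 called 0 higher and 1 lower.

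Within S3 cells, obstruction day 7 was compared with sham to ask what differed among cells that met the S3 rule. This comparison uses 19 cells and was added after seeing that the library had fewer than 20, the minimum set for it. Genes were tested with at least 30 summed UMIs and at least 50 CPM in the higher library, and log2 ratios carry a pseudocount of 1 CPM. Of 2870 genes, 140 were at least 2-fold higher on day 7 (4.88%) and 312 at least 2-fold lower (10.9%), with a median log2 ratio of −0.14. The counting interval of the ratio lay apart from 0 for 115 of the 140 and 147 of the 312. The split of the direction depends on the scaling: 31.0% of the genes past 2-fold were higher on this scale, 57.6% with mt- genes in the total (143 genes lower) and 13.9% with TMM factors (485 genes lower). It also depends on the filter, since S3 cells held 563347 nuclear UMIs in sham and 103218 on day 7. A gene seen only in sham could reach 30 UMIs at a lower CPM than one seen only on day 7. With at least 10 summed UMIs and 20 CPM, 42.1% of the genes past 2-fold were higher. The list counts below and the shares of all genes beside them come through the same main filter.

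Kap, Slco1a1 and Acsm3 lay within 2-fold of sham on day 7, and Inmt was lower. Cells entered only with at least 3 UMIs of the S3 gene Slc7a13, so any that had lost S3 expression were left out beforehand. Levels near sham are therefore partly set by the rule. Whether S3 cells as a whole kept these genes cannot be told. The log2 ratio to sham was 0.19 for Kap (0.15 to 0.23), 0.38 for Slco1a1 (−0.02 to 0.76), 0.49 for Acsm3 (0.00 to 0.96) and −1.09 for Inmt (−1.49 to −0.71). In the S1 gate the ratio of Kap was −1.61 and that of Inmt −3.48, and Slco1a1 and Acsm3 had no UMI there on day 7, after 10.0 and 14.0 CPM in sham. Endothelial cells, which should lack Kap, had 1823 CPM of it in sham and 471 on day 7. At 1000 UMIs Kap was seen in 84.0% and 19.3% of endothelial cells and in 77.7% and 30.8% of S1-gate cells, and Inmt in 5.85% and 1.18% against 14.9% and 3.85%. Kap in the S1 gate is therefore not read as expression there, nor its ratio as a change. Of the 14 measured genes in the S3 list, 1 was at least 2-fold higher, the peptide carrier Slc15a2 (23 UMIs in 14 cells, log2 ratio 1.24), and 1 at least 2-fold lower, Inmt, and the list's median of 0.15 stood beside −0.14 for all genes. The S1 and S2 list had 6 of 15 lower and 1 higher, with a median of −0.47, against 10.9% and 4.88% of all genes. Its 20 genes summed to 13414 CPM in sham and 8681 on day 7 in S3 cells, 19364 and 8627 in the S1 gate, 1215 and 325 in endothelial cells and 1658 and 404 in leukocytes, so the sum was lower in each of these kinds of cell, and the part of free RNA was not tested.

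Of 16 measured organic ion transporters, 3 were at least 2-fold lower on day 7 and 0 higher, and of 10 amino acid transporters 3 were lower and 1 higher, against 10.9% and 4.88% of all genes. Slc34a1 had 2122 CPM on day 7 and 4676 in sham, a log2 ratio of −1.14 (−1.34 to −0.94). Slc22a8, the organic anion transporter OAT3, had 6 UMIs in 6 cells (58.1 CPM) against 219 UMIs in 101 cells (389 CPM), a log2 ratio of −2.72 (−4.14 to −1.59). Gpx3 had 6200 CPM against 18981, a log2 ratio of −1.61 (−1.73 to −1.50), and the median share of a cell's nuclear UMIs was 0.612% on day 7 and 1.85% in sham. Its ratio in the S1 gate was −1.92 and that of Slc34a1 was −1.48, so both gates showed lower levels. Endothelial cells were lower too, with 322 and 41.3 CPM of Slc34a1, 52.1 and 3.02 of Slc22a8 and 3646 and 512 of Gpx3 in sham and day 7, and with Slc34a1 seen in 28.2% and 2.59% of them at 1000 UMIs, beside 93.1% and 63.2% of S3 cells. The part of free RNA in these ratios was not tested. Slc13a1, the sulfate carrier, was higher, with 630 CPM against 245 and a log2 ratio of 1.36 (0.91 to 1.79), and it had 1406 against 256 CPM in the S1 gate.

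The largest decreases by rank were set by genes with no UMI on day 7. Kmo, an enzyme of tryptophan breakdown, had 50 UMIs in 42 sham cells and 0 on day 7, at least 3.05-fold lower with day 7 set to its limit of 3 UMIs. Wfdc15b was at least 2.69-fold lower, Gatsl2 at least 2.44-fold, Crym at least 2.26-fold, Dus1l at least 2.20-fold, and Nxpe3, Rbm42 and Folh1 at least 1.83-fold. The bounds of Rbm42 (1.95-fold) and Folh1 (1.83-fold) lie under 2-fold. Lrrc19 had 1 UMI against 84, a ratio of −3.81 on the log2 scale (−6.93 to −1.41). Dnase1, a secreted nuclease of the tubule, had 9 UMIs in 5 of 19 cells (87.2 CPM) against 539 UMIs in 117 of 173 sham cells (957 CPM), a log2 ratio of −3.44 (−4.56 to −2.51), or −2.15 with mt- UMIs of at most 20%, on 8 day 7 cells. The reversed library had 654 CPM of Dnase1 (560 to 759), below sham (878 to 1041). Its ratio of day 7 to sham was −2.10 in the S1 gate and −3.92 in endothelial cells, which had 59.8, 3.02 and 16.6 CPM in sham, day 7 and the reversed library, and the part of free RNA was not tested.

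Genes of leukocytes were among those most increased on day 7, although every S3 cell had 0 Ptprc UMIs. The first 10 were Ifi27l2a, C1qb, Lyz2, Ctss, C1qa, H2-Eb1, Tyrobp, Fcer1g, C1qc and H2-Ab1, with log2 ratios from 4.98 to 6.94. C1qb, Lyz2, C1qa, Tyrobp and Fcer1g are in the leukocyte list and H2-Ab1 is in the antigen presentation list. Ifi27l2a, an interferon-induced gene in neither list, had 1 UMI in sham and 35 UMIs in 15 of 19 cells on day 7, a log2 ratio of 6.94 (4.86 to 8.39). Its ratio was 4.08 in the S1 gate and 1.20 in endothelial cells, which had 185 and 426 CPM of it against 1.78 and 339 in S3 cells. The 14 leukocyte genes fixed for this purpose summed to 201, 1204, 6462 and 2228 CPM in the S3 cells of sham, day 2, day 7 and the reversed library, with UMIs of 9, 6, 11 and 14 of the 14. Endothelial cells showed 241, 1060, 5445 and 2121 CPM of the same genes, and leukocytes 50051, 34052, 53987 and 47106. Lyz2, the macrophage lysozyme, had 17.8, 334, 1308 and 488 CPM in S3 cells and 19.3, 222, 880 and 418 in endothelial cells. At 500 UMIs Lyz2 was seen in 1.16%, 36.8% and 25.5% of the S3 cells of sham, day 7 and the reversed library, beside 1.60%, 29.7% and 15.2% of endothelial cells, and unthinned in 5.78%, 100% and 87.3% beside 5.32%, 93.6% and 81.3%. At 1000 UMIs the S3 shares were 0, 68.4% and 45.5% beside 3.72%, 59.4% and 33.9%. The shares in S3 cells and in endothelial cells moved together, and the rise is not read as expression by S3 cells.

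Of 18 injury genes in the segment test, 6 were lower in S3 cells than in the S1 gate by edgeR, 0 higher and 12 did not pass, against 5.97% lower and 8.2% higher of all genes. The unadjusted p gave 6 and 0, and DESeq2 called 3 lower and 0 higher. Past the CPM minimum in both gates were 5 of these genes, with 1 lower (Spp1) and 0 higher, against 4.81% and 9.27% of such genes. The other called genes, C3, Cp, Cryab, Tmsb10 and Vim, were not past it in both gates and are a description only. Spp1, osteopontin, had 126, 1589 and 586 CPM in the S3 cells of sham, day 7 and the reversed library, all below endothelial cells of the same libraries (208, 6435 and 2965 CPM) and below the S1 gate (1841, 17352 and 3090 CPM). At 1000 UMIs Spp1 was seen in 9.25%, 78.9% and 36.4% of S3 cells beside 10.1%, 64.4% and 37.4% of endothelial cells, so on day 7 the share was not below that of endothelial cells. At 500 UMIs the shares were 3.47%, 42.1% and 5.45% beside 4.79%, 40.6% and 24.0%. Havcr1, the injury marker KIM-1, had 9 UMIs in 4 of 19 S3 cells on day 7, 6 of them in 1 cell (87.2 CPM, 39.9 to 166), against 202 CPM in the S1 gate and 29.2 in endothelial cells. C3, complement component 3, had 38.8 CPM on day 7 (10.6 to 99.2) against 1319 in the S1 gate, and Vcam1 19.4 CPM (2.35 to 70.0) against 534. The rule removed cells with fibrinogen, which is itself induced in injured tubule, and 3 of 33 cells with enough Slc7a13 left that way on day 7. Within S3 cells the 35 injury genes summed to 742, 4185 and 1857 CPM in sham, day 7 and the reversed library, beside 4904, 14729 and 10778 in endothelial cells. Of the 6 that passed the filter for day 7 against sham, Spp1, Cryab, S100a11 and Plin2 were at least 2-fold higher and 0 lower (median log2 ratio 1.09), against 4.88% and 10.9% of all genes. The 25 Cryab UMIs on day 7 lay in 5 cells, with 11 in each of 2 cells. Of the 8 that passed for the reversed library against sham, Spp1, Clu, Tmsb10 and Tpm1 were higher and 0 lower (median 1.11), against 4.2% and 2.71%. A gene low in sham passed only through the other library, so nothing is read from these counts, and the part of free RNA was not tested.

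**Figure D4:**
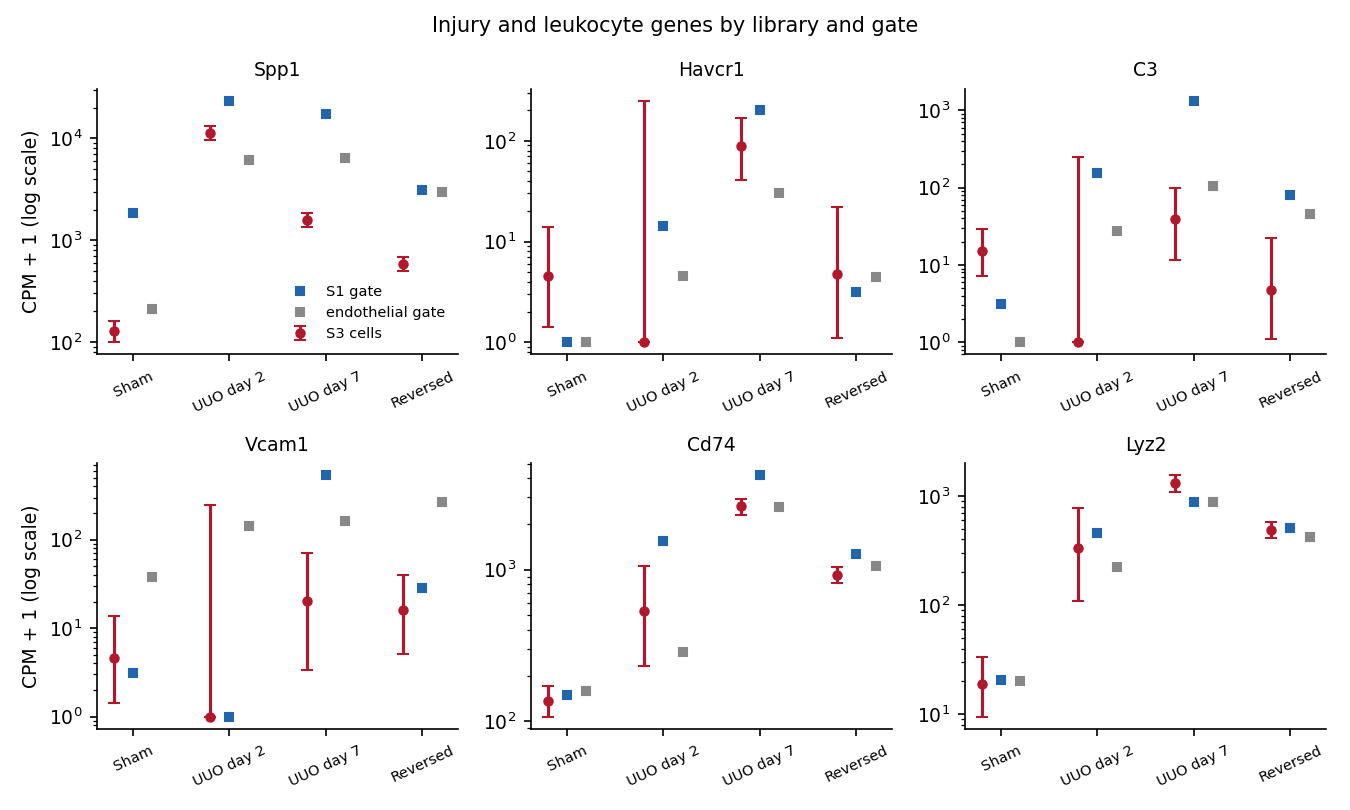
Levels as CPM + 1 on log axes of 4 injury genes and 2 leukocyte genes in S3 cells (red, with exact 95% Poisson intervals), S1-gate cells (blue) and endothelial cells (grey) of each library. On day 7 the S1 gate stands above S3 cells for Spp1, Havcr1, C3 and Vcam1, and Cd74 and Lyz2 stand high in all 3 kinds of cell.

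Of the metabolic lists, compared between day 7 and sham, cytochrome P450 and conjugation had 2 of 27 genes at least 2-fold higher and 5 lower, glutathione and antioxidant genes 2 of 20 and 1, fatty acid oxidation and peroxisomes 1 of 30 and 1, gluconeogenesis and glycolysis 0 of 15 and 2, and the nuclear respiratory chain 0 of 30 and 1, against 4.88% and 10.9% of all genes. Gclc, Cyp4a14 and Slc25a20 were among the higher ones and were chosen after their values were seen. Gclc, the catalytic subunit of the rate-limiting enzyme of glutathione synthesis, had 109 UMIs in 14 of 19 cells (1056 CPM, 867 to 1274) against 64 UMIs in 47 of 173 sham cells (114 CPM), a log2 ratio of 3.21 (2.75 to 3.67), and 36 of the 109 lay in 1 cell. The S1 gate had 59.9 CPM on day 7 and 48.8 in sham, and endothelial cells 43.4 and 46.3. At 1000 UMIs Gclc was seen in 31.6% of day 7 S3 cells (12.6% to 56.6%) and 8.67% of sham S3 cells (4.93% to 13.9%), which overlap. Gclm, the modifier subunit, was at 513 CPM on day 7 and 518 in sham. Cyp4a14, a fatty acid omega-hydroxylase, had 126, 426 and 53.0 CPM in sham, on day 7 and after reversal, and Slc25a20, the carnitine carrier of mitochondria, had 35.5, 145 and 37.8. The S1 gate had 6.60, 10.9 and 5.69 CPM of Cyp4a14 and 17.4, 70.8 and 25.3 of Slc25a20. The log2 ratio of Slc25a20 between day 7 and sham was 2.00 in S3 cells and 1.96 in the S1 gate. Of the other lists, endocytosis genes had 0 of 14 higher and 3 lower, and immediate-early and heat-shock genes 2 of 7 and 0. Transcription factors had 2 of 9 and 2, and sex-biased genes 1 of 6 and 1, beside the same shares of all genes. Among genes that passed, 6 of 6 for interferon and antigen presentation, 7 of 7 of leukocytes and 1 of 1 of the cell cycle were higher. Genes low in sham passed only through day 7, so nothing is read from these counts.

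After reversal, S3 cells were compared with sham on 55 against 173 cells. Of 3021 genes, 127 were at least 2-fold higher (4.2%) and 82 at least 2-fold lower (2.71%), with a median log2 ratio of −0.10. The counting interval lay apart from 0 for 123 of the 127 and 65 of the 82. Of the genes past 2-fold, 60.8% were higher, against 79.6% with mt- genes in the total and 49.6% with TMM factors. The S3 list had 0 of 14 genes past 2-fold in either direction, with a median of −0.03, and the fatty acid, respiratory chain, endocytosis and amino acid transporter lists also had 0 of 28, 30, 14 and 11, beside shares of 4.2% and 2.71% for all genes. Other lists had calls: 3 of 20 glutathione genes, 2 of 27 cytochrome P450 and conjugation genes, 1 of 16 organic ion transporters and 1 of 15 S1 and S2 genes were lower with 0 higher, and of 11 transcription factors 2 were higher and 1 lower. Of 8 sex-biased kidney genes 2 were higher, and of 7 immediate-early and heat-shock genes 1 was lower. Of the genes that passed, 5 of 6 for interferon and antigen presentation, 6 of 6 of leukocytes (median 3.88), 1 of 1 of erythrocytes and 1 of 2 of the cell cycle were higher, and the injury genes are given above. Genes low in sham passed only through the reversed library, so nothing is read from these counts. Kap stood at a log2 ratio of 0.13 (0.10 to 0.16), Slco1a1 at 0.22 (−0.06 to 0.51), Acsm3 at 0.03 (−0.36 to 0.40), Inmt at −0.57 (−0.79 to −0.35) and Slc34a1 at −0.36 (−0.47 to −0.25). These cells too were chosen by Slc7a13, so levels of S3 genes near sham are partly set by the rule.

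Gpx3, Slc22a8 and Gsta2 were lower than in sham. Gpx3 had 7954 CPM against 18981, a log2 ratio of −1.25 (−1.32 to −1.19), and its ratio in the S1 gate was −0.94, with 1583 against 3646 CPM in endothelial cells. Slc22a8 had 132 CPM against 389, a log2 ratio of −1.55 (−2.10 to −1.03), and −0.76 in the S1 gate and −2.39 in endothelial cells. Gsta2, a glutathione transferase, had 83.2 CPM (22 UMIs in 15 cells) against 249 (140 UMIs in 72 cells), a log2 ratio of −1.57 (−2.28 to −0.92), with −0.93 in the S1 gate and −1.89 in endothelial cells, but −0.30 in S3 cells with mt- UMIs of at most 20%, so its call ended there. On day 7 Gsta2 had stood at 329 CPM (34 UMIs). The other 8 of the 10 lowest were Tstd1, Adra2b, Bckdk, Bcl6, Egf, Farsb, Erlin2 and Nxpe3, each with 4 to 8 UMIs in the reversed cells and log2 ratios from −1.58 to −2.48. Egf, a product of the loop of Henle and distal tubule, had 97.6 CPM in sham S3 cells.

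The 10 genes most increased after reversal were C1qb, Lyz2, Mgp, Tmsb10, Igkc, H2-Eb1, Fcer1g, C1qa, Apoe and Clu, with log2 ratios from 3.67 to 4.95. All 10 were also higher in the S1 gate (1.18 to 6.04) and in endothelial cells (0.53 to 4.37), but not to the same degree. In S3 cells, the S1 gate and endothelial cells, Lyz2 stood at 4.70, 4.63 and 4.37. Mgp stood at 4.60, 6.04 and 0.53, and Apoe at 3.69, 1.18 and 1.76. With mt- UMIs of at most 20% the Apoe ratio in S3 cells was 2.84. Clu, clusterin, had 125 CPM in reversed S3 cells and 863 in endothelial cells, and Tmsb10 had 140 and 1722. The part of free RNA in these values was not tested.

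**Figure D5:**
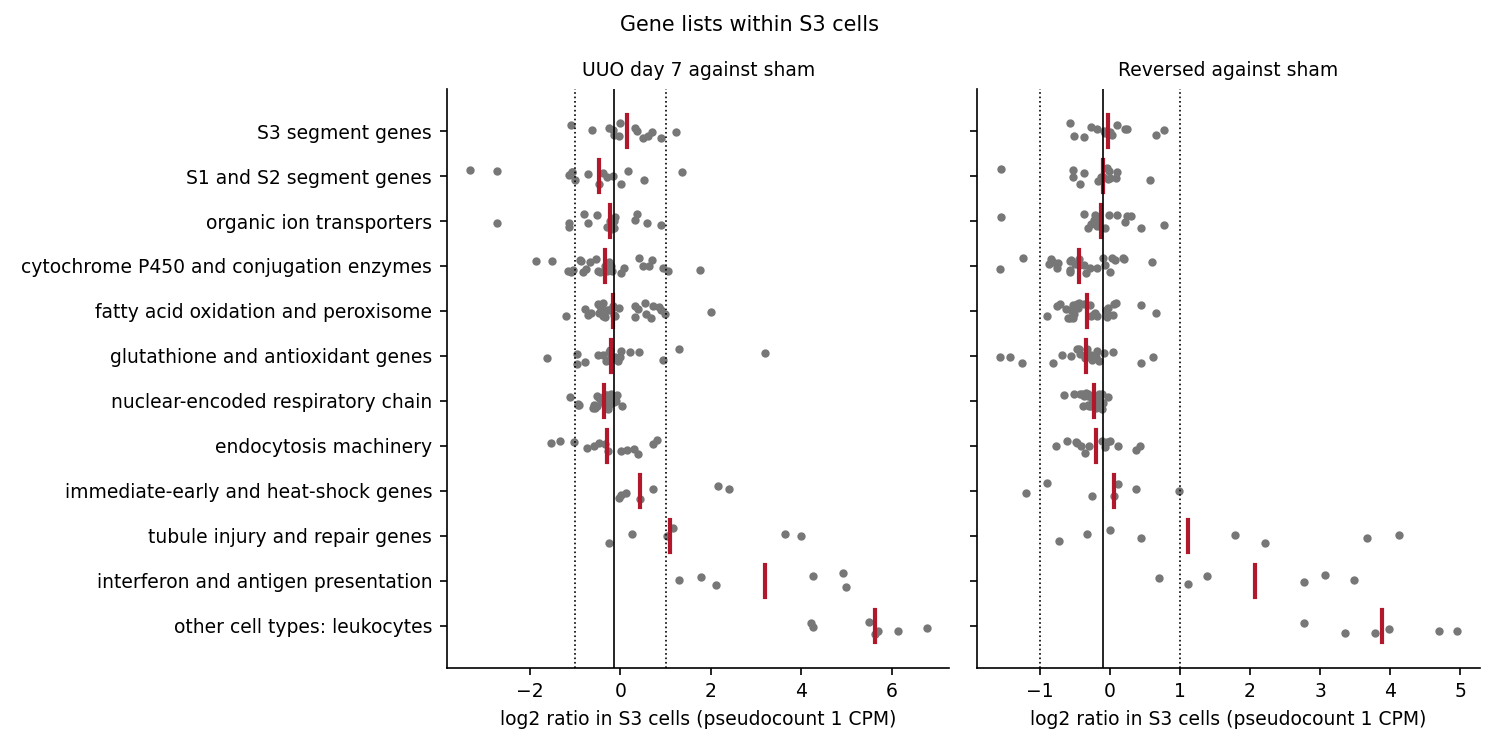
Log2 ratios in S3 cells of day 7 against sham (left) and of the reversed library against sham (right) for members of 12 gene lists that passed the count filter, 1 grey point per gene. Red bars are list medians, the solid line is the median of all genes tested (−0.14 and −0.10) and dotted lines mark 2-fold. The leukocyte and antigen presentation lists lie furthest right in both panels and the S3 list lies around the line of all genes.

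Between day 7 and reversal, 72 of 1824 genes were at least 2-fold higher after reversal (3.95%) and 67 at least 2-fold lower (3.67%), again on the 19 cells of day 7, with an interval apart from 0 for 37 of the 72 and 62 of the 67. Of those past 2-fold, 51.8% were higher, against 42.6% with mt- genes in the total and 69.2% with TMM factors. Higher after reversal were Lrrc19, Dnase1, Pi4ka, Tmem64, Klk1, Ugt2b37, AY036118, Ap2a2, Ptprd and Tmem243, with log2 ratios from 1.88 to 3.56, and all but Dnase1 and Ugt2b37 had at most 7 UMIs on day 7. Lower after reversal were Cyp4a14, Gadd45g, Gclc, Cyp7b1, Cryab, Cited2, Tyrobp, C1qc, Jun and Gsta2 (−1.97 to −2.99). Tyrobp is in the leukocyte list, of which 7 of 8 tested genes were lower, and C1qc, a complement gene of macrophages, is not. The ratios of Tyrobp and C1qc were −1.29 and −1.39 in the S1 gate and −1.60 and −1.92 in endothelial cells, so nothing is read from them for S3 cells. Of the others, 21 of 22 Cyp7b1 UMIs, 22 of 35 Gadd45g UMIs, 23 of 35 Jun UMIs and 15 of 24 Cited2 UMIs on day 7 lay in 1 cell, and without that cell the Cyp7b1 ratio turned to 1.61, that of Jun was −0.59, under 2-fold, and those of Cited2 and Gadd45g were −1.17 and −1.46. Cryab had 11 of its 25 day 7 UMIs in that cell and 11 in another. All 3 comparisons share libraries and are not independent of one another.

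The cells behind these counts could be singled out, and were chosen after their values were seen. A UMI of at least 2 of the genes Cyp7b1 (oxysterol hydroxylase), Akr1c18 (a steroid dehydrogenase), Serpina1f and Bcat1 was present in 0 of 173 sham, 2 of 19 day 7 and 1 of 55 reversed S3 cells. The first day 7 cell (10742 UMIs) had 21 Cyp7b1, 10 Akr1c18, 8 Serpina1f, 3 Bcat1 and 36 Gclc UMIs, the second (7284 UMIs) had 1, 0, 0, 2 and 6, and the reversed cell (2913 UMIs) had 8, 2, 0, 0 and 1. All 3 had 17, 7 and 5 Slc7a13, 11, 7 and 4 Acsm3, and 527, 88 and 138 Kap UMIs, but no UMI of Slco1a1 or Inmt. Cells lacking both Slco1a1 and Inmt UMIs numbered 11 of 173 sham, 3 of 19 day 7 and 3 of 55 reversed cells. In the S1 gate the 4 genes Cyp7b1, Akr1c18, Serpina1f and Bcat1 stood at 0 to 1.78 CPM in every library.

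The 2 S3 cells of day 2 differed from each other. The cell of 7264 UMIs had 148 Spp1, 296 Kap and 7 Inmt UMIs and no Top2a, Rrm2 or Cdk1. The cell of 11143 UMIs had 21 Spp1, 151 Kap and 8 Cyp4a14 UMIs, and also 9 Top2a, 9 Rrm2 and 7 Cdk1, genes of DNA replication and mitosis. In the other libraries Top2a was seen in 0 of 173, 1 of 19 and 2 of 55 S3 cells. With 2 cells no comparison with day 2 was made.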

How the data were processed

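Raw UMI counts per gene and cell were deposited by the authors for 4 droplet libraries, and the whole numbers with unequal totals in the matrices fit this unit. The submitters' processing notes name Cell Ranger, STAR and GRCm38/mm10 without versions. A further Smart-seq2 sample was not used here, since its wells mix all time points. The members and gene lists were chosen with earlier results of these data known, and the alternatives for a minimum of 10 cells per library in place of 20 (which brings in the 19 cells of day 7), for Slco1a1 plus Acsm3, for equal cell numbers, for genes past the CPM minimum in both gates and for single cells were added after seeing the data.

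Counts were summed over gated cells (Python 3.11.15, numpy 2.4.6, pandas 2.3.3, scipy 1.17.1). CPM were computed over nuclear genes. The named genes were the 4 markers, the 15 largest fold changes in each direction of the segment test with the same sign in every library, the 10 largest ratios per comparison (rule, mt-, ribosomal protein, haemoglobin and Gm-numbered genes left out), and up to 4 list members of the highest level, and other list members in the text were chosen after their values were seen. The segment test used edgeR 4.0.16 in R 4.3.3 with filterByExpr, DESeq2 1.42.0 was an alternative, and the edgeR test was tested on simulated data. Libraries under 20 cells entered no planned comparison between libraries, and the segment test asked for 10 cells in both gates. Doublets were scored with Scrublet in scanpy 1.11.5 at 0.8% per 1000 cells and were kept in the main values. Thinning drew UMIs at random to 1000 per cell. Genes were located by ID in GENCODE vM21, where all 83 IDs looked up were found.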

Additional observations from a re-analysis of the deposited data

Results flagged for a closer look

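All genes past the count filter in both the S3 and the S1 gate were scanned in each comparison between libraries. Kept were those with ratios of opposite sign, both past 2-fold and with intervals apart from 0. The 2 genes below are thus picked from many and are a description. Ugt2b37, a glucuronidation enzyme, moved in opposite directions in the 2 gates between sham and day 7. In S3 cells its log2 ratio was −1.85 (−2.77 to −1.06), with 13 UMIs in 7 cells on day 7 and 258 UMIs in sham. In S1-gate cells it was 2.77 (2.20 to 3.30), with 38 and 112 UMIs. Slc3a2, the heavy chain shared by several amino acid carriers, went the other way, with a log2 ratio of 1.11 in S3 cells (0.03 to 2.11, 12 and 30 UMIs) and −1.09 in S1-gate cells (−1.59 to −0.62, 38 and 1670 UMIs). Its interval in S3 cells came close to 0, and TMM factors shifted the median of all genes by −0.23 in this comparison. The difference between the gates was not tested in either case, since each condition is 1 library. Ugt2b37 belongs to a family of near-identical genes, so its counts are uncertain.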

How the results depend on the processing

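The share of S3 cells among kept cells moved with the Slc7a13 threshold, from 4.40% to 2.26% (at least 5 UMIs) and 6.64% (at least 2) in sham, from 0.427% to 0.225% and 0.675% on day 7, and from 1.70% to 0.989% and 2.63% after reversal, and day 2 had 0 at 5 UMIs. With mt- UMIs of at most 20% it was 0.191% on day 7 and 1.11% after reversal, and with Slco1a1 plus Acsm3 of at least 3 UMIs in place of Slc7a13 it was 2.85% in sham and 2.44% after reversal, whose intervals overlap. Beside 413 higher and 301 lower of 5038 genes, the segment test called 257 and 112 of 9591 with DESeq2, 170 and 87 of 5038 without the library block, 200 lower of 3708 at 5 Slc7a13 UMIs, 157 lower of 3597 with S1 cells subsampled to the S3 number, 465 lower of 16184 without a count filter, and 153 lower of the 3184 genes past the CPM minimum in both gates. Leaving out 1 library gave 138 to 700 higher and 64 to 572 lower, of 3422 to 9270 genes tested. The 30 genes named from it kept their direction in the 198 refits that tested them, which is no sign of stability for genes that passed through 1 gate.

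Against 127 higher and 82 lower of 3021 after reversal, there were 32 lower with mt- genes in the total (2380 tested), 52 lower with a pseudocount of 10 CPM, 140 lower with each cell counted equally, 71 higher at 5 Slc7a13 UMIs (2571 tested), 33 higher and 53 lower at 20% mt- UMIs (1259 tested), and 588 and 331 with 10 UMIs and 20 CPM as the filter (5765 tested). The share of higher genes was 60.8% on the main scale, 79.6% with mt- genes in the total and 49.6% with TMM factors (3174 tested). For day 7 against sham (140 and 312 of 2870) there were 143 lower with mt- genes in the total (2440 tested), 78 higher and 485 lower with TMM factors (2936 tested), 31 and 102 at 20% mt- UMIs (918 tested), and 655 and 899 under the lower filter (5548 tested). The 20% limit leaves 8 S3 cells on day 7, under the minimum of 10, so its day 7 counts are values only. TMM shifted the median of all genes by −0.23 and the mt- total by 0.20 in that comparison. For the reversed library against day 7 (72 and 67 of 1824) there were 117 higher with TMM factors (a shift of 0.15), 37 lower at 5 Slc7a13 UMIs (1232 tested), 27 lower at 20% mt- UMIs (887 tested), and 517 and 402 under the lower filter (4616 tested). Of 395 refitted ratios of named genes, 368 stayed within their counting interval, 26 left it and 1 reversed, Cyp7b1 at 1.61 without its highest cell, because 21 of its 22 day 7 UMIs lay there. Of 192 list medians, 186 stayed within their interval, and of 108 shares of cells with a UMI 75 moved with the depth.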
